A study of Mus musculus with 11 samples.

Results

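Kainate receptors are the class of ionotropic glutamate receptor named after the agonist kainate, and 7 genes encode their known subunits: Grik1 to Grik5 for the pore-forming subunits GluK1 to GluK5, and Neto1 and Neto2 for the auxiliary subunits. All 7, taken as the members of this gene family, were found among the 24421 entries of the expression table and were compared across 4 brain regions. RNA was sequenced from Aldh1l1-GFP positive cells, which were sorted by FACS from the olfactory bulb (OB, 3 samples), hippocampus (HC, 3 samples), cortex (CX, 2 samples) and brainstem (BS, 3 samples) of 16-week-old mice on the C57BL/6 background. Every group carried the same BAC transgene, in which Aldh1l1 sequences drive eGFP, and cells were taken by their reporter signal. Male and female mice were included. How many animals stand behind a sample is not given in the sources used here, so p-values measure only the spread between these samples. Values are normalized read counts, that is, reads on a gene divided by a size factor for the sample. The 11 libraries held between 2830746 and 14151670 reads on genes. A single read was worth between 0.367 and 2.10 on the normalized scale. The detection floor was set at 3 reads and allows for counting error only. All 10 astrocyte markers examined were detected in each region.

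A kainate receptor is a tetramer. GluK1, GluK2 and GluK3 bind kainate with lower affinity and can form channels alone, whereas GluK4 and GluK5 bind it with higher affinity and need GluK1, GluK2 or GluK3 as partners. Neto1 and Neto2 are single-pass membrane proteins with CUB domains that attach to the receptor and slow its gating. These receptors are best known from neurons, where they sit on both sides of the synapse. In RNA from a sorted population, fewer cells of a type and less RNA per cell cannot be told apart.

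Across the 4 regions, 4 of the 7 genes differed with an adjusted p under 0.05 (limma F-test, Benjamini-Hochberg over 13875 genes): Neto2 (adjusted p = 0.000224), Grik3 (0.00672), Grik2 (0.0328) and Grik4 (0.0373). Over all genes tested, 16.5% passed. Grik3 and Neto2 were highest in the OB, Grik2 was lowest in the BS and Grik4 was highest in the BS. Grik1 (adjusted p = 0.407), Grik5 (0.183) and Neto1 (0.166) did not pass. The result for Grik3 and Neto2 held when any single sample was left out (highest adjusted p, 0.0401 and 0.0024). Grik2 no longer passed without OB sample 2 (0.0783) or 3 (0.0640), CX sample 1 (0.0562) or 2 (0.0738), or BS sample 1 (0.111). Grik4 no longer passed without any of the 3 OB samples (0.0832, 0.0716 and 0.0945), HC sample 2 (0.0534) or any of the 3 BS samples (0.0583, 0.111 and 0.0891), and Grik5 passed without BS sample 2 (0.0417).

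The 4 genes that differed are shown with the 250 bases before their RefSeq transcription start (build GRCm38.p6), 5′ to 3′ on the strand of the gene. CpG dinucleotides are in capitals, since all 4 windows held more of them than the median window. The windows are chr4:125490446-125490695 on the plus strand for Grik3, chr8:85700925-85701174 on the minus strand for Neto2, chr10:49788755-49789004 on the minus strand for Grik2 and chr9:42944372-42944621 on the minus strand for Grik4. In GENCODE M21, Grik4 and Grik2 start further upstream than in RefSeq. By that annotation 122 bases of the Grik4 window and 12 of the Grik2 window lie inside the gene.
Grik3: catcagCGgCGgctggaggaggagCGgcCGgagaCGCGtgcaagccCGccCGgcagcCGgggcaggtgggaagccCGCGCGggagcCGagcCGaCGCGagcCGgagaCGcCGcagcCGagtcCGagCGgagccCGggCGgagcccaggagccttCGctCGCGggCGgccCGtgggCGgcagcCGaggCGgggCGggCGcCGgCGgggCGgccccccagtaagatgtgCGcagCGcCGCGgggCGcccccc
Neto2: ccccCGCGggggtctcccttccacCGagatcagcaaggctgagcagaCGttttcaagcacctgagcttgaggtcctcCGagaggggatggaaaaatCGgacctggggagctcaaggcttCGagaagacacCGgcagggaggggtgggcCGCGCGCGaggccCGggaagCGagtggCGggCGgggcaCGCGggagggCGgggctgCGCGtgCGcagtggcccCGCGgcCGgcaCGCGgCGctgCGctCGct
Grik2: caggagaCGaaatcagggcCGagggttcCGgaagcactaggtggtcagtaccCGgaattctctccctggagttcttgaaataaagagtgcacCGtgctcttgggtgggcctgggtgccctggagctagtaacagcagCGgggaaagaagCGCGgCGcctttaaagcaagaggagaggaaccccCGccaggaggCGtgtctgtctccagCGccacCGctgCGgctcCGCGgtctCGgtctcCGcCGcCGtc
Grik4: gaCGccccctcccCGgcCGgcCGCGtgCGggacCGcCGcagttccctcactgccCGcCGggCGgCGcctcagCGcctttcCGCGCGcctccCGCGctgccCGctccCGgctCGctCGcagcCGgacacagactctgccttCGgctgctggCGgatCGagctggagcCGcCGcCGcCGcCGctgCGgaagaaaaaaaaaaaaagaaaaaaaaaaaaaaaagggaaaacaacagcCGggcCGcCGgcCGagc
These windows held 42 CpGs in Grik3, 36 in Grik4, 30 in Neto2 and 20 in Grik2, against a median of 6 over the 32851 RefSeq windows of the same length. Fewer CpGs were held by 99.1%, 97.4%, 94.1% and 82.05% of all windows, in that order. Their GC content was 82.0% in Grik3, 72.0% in Neto2, 69.6% in Grik4 and 62.8% in Grik2, against a median of 52.4% and an upper quartile of 61.2%. Genes that were higher in the OB and genes that were higher in the BS thus both had CpG-rich windows. Of the 7 genes, only those that differed had their windows measured, so a link between CpG density and differing among regions was not tested. The NFI half-site TTGGC, searched on both strands and present in 41.5% of all windows, was absent from these 4. The homeodomain core TAATTA (4.84% of all windows) was absent as well. This says only that these letters are not in these windows. In all, 5 of the 7 genes had an entry in the RefSeq table.

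**Figure D1:**
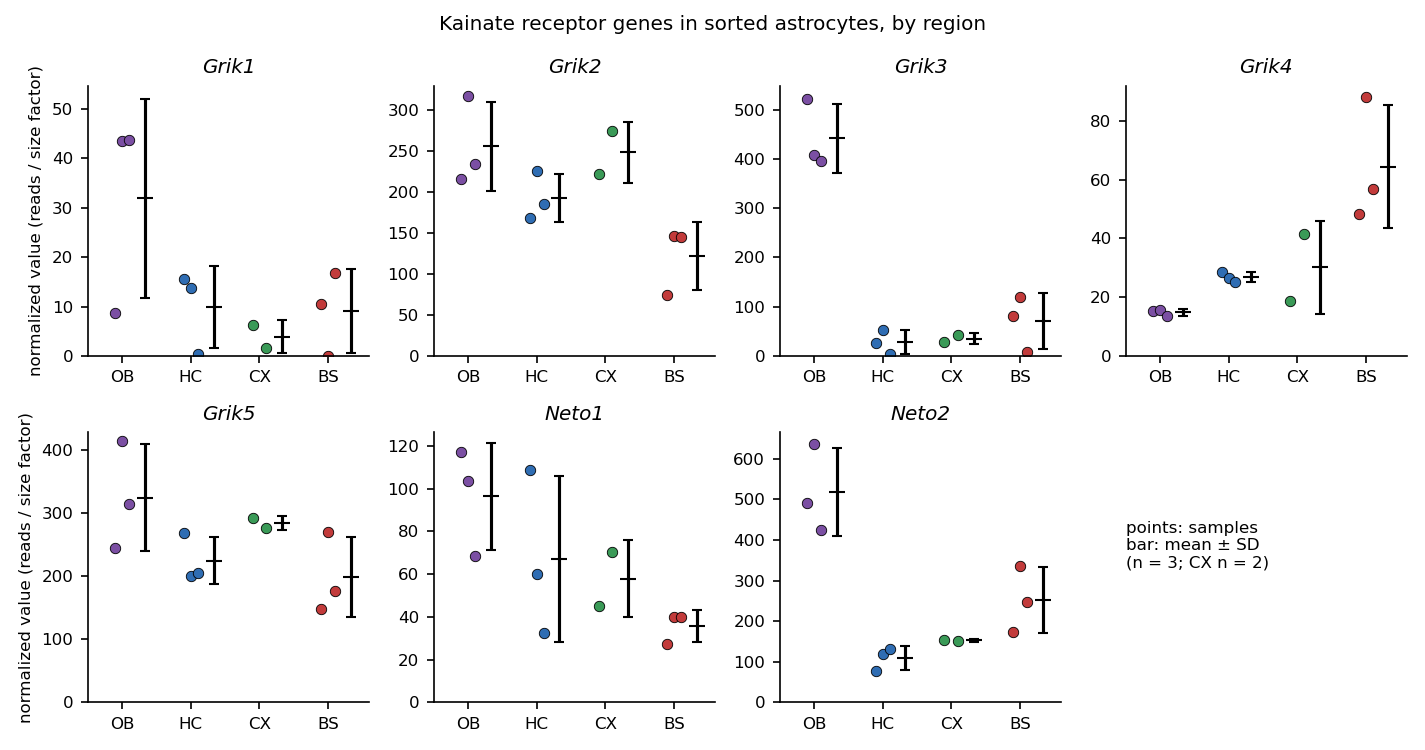
Normalized value of each kainate receptor gene (vertical axis, reads divided by the sample's size factor, linear from 0) in every sample, by region. Points are samples and bars give the mean and SD (n = 3, CX n = 2). The OB samples of Grik3 (395 to 522) and Neto2 (424 to 636) lie above all samples of the other regions, and the BS samples of Grik4 (48.4 to 88.1) lie above all other samples of that gene.

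To ask how the astrocytes of a region stand apart, its samples were compared with all samples from the other 3. A gene was called with thresholds taken from the study, namely more than 1.5-fold change, a p below 0.01 and, in 2 or more replicates of a region, values above 5. The study does not say whether its p was adjusted, and unadjusted p-values were used here. It gives the value threshold as RPM, that is, reads scaled to a common library total, whereas the threshold of 5 was applied here to normalized values, which is a looser limit. Asking for an RPM over 5, counted over reads on genes, an alternative chosen after seeing the data, left the calls of the 7 genes as they were. The test was limma on log2(value + 1). In the OB 2 of the 7 genes were called, both higher (Grik3 and Neto2), where 8.04% of all 13875 tested genes were called, 4.15% as higher. The BS had 1 higher gene (Grik4) and 1 lower gene (Grik2), against 9.03% of all genes, with 3.98% higher and 5.05% lower. In the HC 1 gene was called, Neto2, which was lower (1.28% of all genes, 1.00% lower). The CX had 0 of 7 called, also with edgeR and with DESeq2 and with 0 at an unadjusted p under 0.05, against 2.77% of all genes. With an adjusted p under 0.05 in place of the unadjusted one, the OB and BS calls stood at 2 each (4.54% and 5.31% of all genes), and the HC and CX had 0 (0.00% and 0.0144%). These adjusted calls depended on single samples. The adjusted p of Grik3 in the OB was 0.0616, 0.0552 and 0.0523 without each OB sample, and that of Neto2 was 0.0594 without OB sample 1 and 0.0990 without OB sample 2. Grik2 in the BS lost its adjusted call in 7 of 11 fits that left out a sample (adjusted p up to 0.209 from limma), and Grik4 in 9 of 11 (up to 0.139). The median log2 fold change of the 7 genes was 0.94 for the OB, −0.20 for the HC, −0.06 for the CX and −0.70 for the BS, whereas that of all tested genes lay between −0.03 and 0.02. In the OB 6 of the 7 estimates were positive, and in the BS 2 were, Grik4 and Neto2, of which Neto2 (0.22) was negative with edgeR (−0.14) and DESeq2 (−0.11).

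**Figure D2:**
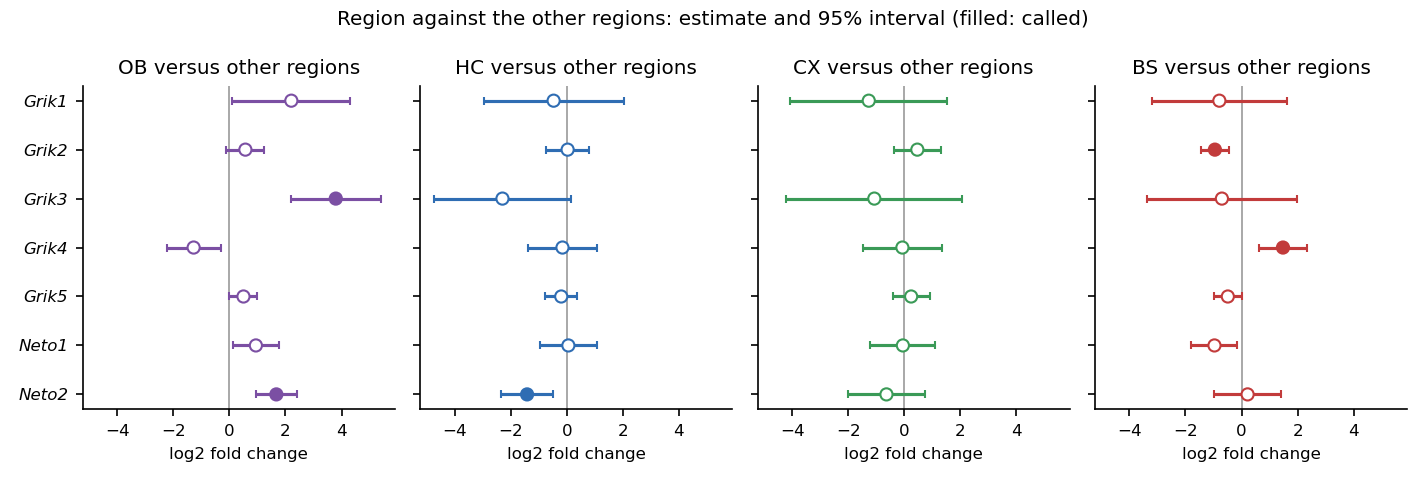
Log2 fold change of each gene (horizontal axis, on log2(value + 1)) for a region relative to all other samples, with its 95% interval from limma. Filled points were called. Grik3 (3.80) and Neto2 (1.67) are filled in the OB, Neto2 (−1.42) in the HC, and Grik2 (−0.95) and Grik4 (1.48) in the BS, while the CX holds open points alone.

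Grik3, on chromosome 4 from 125490700 to 125714173 of GRCm38 in GENCODE M21, encodes GluK3, a subunit with unusually low sensitivity to glutamate. Its values were 522, 409 and 395 in the OB samples. They were 26.2, 53.0 and 4.77 in the HC, 27.6 and 42.9 for the CX samples, and 82.0, 120.2 and 8.42 in the BS. The lowest OB sample thus lay more than 3-fold above the highest sample of any other region, and 4.93% of all genes had OB samples above all others. The OB mean was 442 ± 69.7 (SD, n = 3), 9.69 times that of the other 8 samples (log2 fold change 3.80, standard error 0.75, adjusted p = 0.00888 from limma). Outside the OB the samples of a region were scattered. The BS mean was 70.2 ± 56.8 (SD, n = 3), with 4 reads in its lowest sample, and the HC mean was 28.0 ± 24.2 (SD, n = 3). In the order OB, BS, CX, HC, the OB differed from the BS (adjusted p = 0.0150), but the BS did not pass against the CX (0.863), nor the CX against the HC (0.795). Against the HC the OB mean was 15.8-fold higher (adjusted p = 0.00346) and against the CX 12.5-fold higher (0.0355). The HC against all other samples had a log2 fold change of −2.30, which was not called (unadjusted p = 0.0621) but was with DESeq2 (−2.85, unadjusted p = 0.00946) and with a mean for each region (−2.13, unadjusted p = 0.00798).

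Grik2, on chromosome 10 from 49094833 to 49788766, encodes GluK2, the most widely expressed of the lower-affinity subunits, whose pore is subject to RNA editing. Its values were 74.6, 146 and 145 in the BS. They were 216, 317 and 234 in the OB, 169, 226 and 186 in the HC, and 222 and 274 in the CX. Every BS sample lay below every other sample, as held for 4.19% of all genes, although the gap between the highest BS and the lowest HC sample was small. The BS mean of 122 ± 41.0 (SD, n = 3) was 1.89-fold lower than that of the other samples (log2 fold change −0.95, standard error 0.24, adjusted p = 0.0337 from limma). Without BS sample 1, the lowest, the log2 fold change was −0.63 and the gene was no longer called (unadjusted p = 0.0161). The order of means was OB (256), CX (248), HC (193) and BS (122), and neighbours did not pass in any of the 3 steps (adjusted p = 0.983, 0.695 and 0.192). The BS differed from the OB (0.0126) and from the CX (0.0353).

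Grik1, on chromosome 16 from 87895900 to 88290265, encodes GluK1, the other lower-affinity subunit, known in the brain mostly from interneurons. It was the gene with the fewest reads, 209 over the 11 samples. Its values were 8.69, 43.4 and 43.6 in the OB and 15.6, 13.7 and 0.367 in the HC. The CX samples had 6.28 and 1.53, and the BS samples 10.5, 0 and 16.8. All OB samples lay above both CX samples, which held 5 and 1 reads, and the other pairs of regions overlapped. How many of all genes separate for that pair was not counted. A total of 3 samples, 1 each in the HC, CX and BS, were under the floor of 3 reads, and the BS sample at 0 allows a value of up to 6.01. The deepest library, HC sample 3, held 1 read, where its floor is a value of 1.10. The OB mean of 31.9 ± 20.1 (SD, n = 3) was 3.94 times that of the other samples (log2 fold change 2.21, 95% interval 0.11 to 4.31, adjusted p = 0.255 from limma). In limma 0 of the 6 pairs of regions passed an adjusted p under 0.05, and 0 had an unadjusted p under it.

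Grik4, on chromosome 9 from 42518135 to 42944493, encodes GluK4, a higher-affinity subunit. In the BS its values were 48.4, 88.1 and 56.8. They were 18.8 and 41.4 in the CX, 28.7, 26.5 and 25.3 in the HC, and 15.2, 15.8 and 13.5 in the OB. Every BS sample lay above every sample of the other regions (3.70% of all genes) and every OB sample below them (3.24%). The BS mean of 64.4 ± 21.0 (SD, n = 3) was 2.78 times that of the other samples (log2 fold change 1.48, standard error 0.40, adjusted p = 0.0466 from limma). Without BS sample 2, the highest, the log2 fold change was 1.23 and the gene was not called (unadjusted p = 0.0211). The OB mean was 14.8 ± 1.21 (SD, n = 3), and its log2 fold change of −1.28 missed the threshold (unadjusted p = 0.0128). It was called there with DESeq2 (−1.47, unadjusted p = 0.0029), with a mean fitted for each region (−1.23, unadjusted p = 0.00597) and without CX sample 1 (−1.41, unadjusted p = 0.0061). The OB and the BS, at the ends of the order, differed 4.35-fold (adjusted p = 0.00821), and the neighbours BS and CX (0.193), CX and HC (0.983), and HC and OB (0.390) did not pass.

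Grik5, on chromosome 7 from 25009849 to 25072346, encodes GluK5, the other higher-affinity subunit. Its values were 245, 414 and 314 in the OB, 268, 201 and 205 in the HC, 291 and 276 for the CX samples, and 148, 270.5 and 177 in the BS. The ranges of the OB, HC and BS overlapped, and it had the smallest span of region means among the 7 genes, 1.63-fold between the OB (324) and the BS (198). Of the 6 pairs of regions 0 passed in limma, 1 with an unadjusted p under 0.05, and the largest difference, OB against BS, had a 95% interval of 0.18 to 1.26 on the log2 scale (adjusted p = 0.0719 from limma).

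The auxiliary gene Neto2, on chromosome 8 from 85636588 to 85700924, was the member with the smallest p across regions. It had values of 489.7, 636 and 424 in the OB and of 173, 337 and 248 in the BS. In the CX it had 155 and 150.3, and in the HC 76.2, 119.7 and 132. Every OB sample lay above every other sample, as held for 4.93% of all genes. Below them the regions also followed each other with no overlap between samples, BS above CX and CX above HC. How many of all genes have their regions separated in full was not counted. The OB mean of 517 ± 108 (SD, n = 3) was 2.97 times that of the other samples (log2 fold change 1.67, standard error 0.35, adjusted p = 0.0120 from limma). The HC mean was 109 ± 29.3 (SD, n = 3), 2.99-fold below that of all other samples, and no HC sample reached them (1.03% of all genes). The log2 fold change was −1.42 (standard error 0.43, unadjusted p = 0.00554). Its adjusted p was 0.653, and it was not called without HC sample 1 (unadjusted p = 0.0371), HC sample 2 (0.0139) or BS sample 2 (0.01003). In the order of means the OB differed from the BS (adjusted p = 0.0161), the BS did not pass against the CX (0.189), nor the CX against the HC (0.539), and the BS differed from the HC, 2.31-fold (0.0194).

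Neto1, on chromosome 18 from 86394952 to 86506718, stood at 117, 103 and 68.4 in the OB, 109, 60.3 and 32.3 in the HC, 45.2 and 70.5 for the CX samples, and 27.3, 40.1 and 40.0 in the BS. The HC samples spanned nearly the whole range of the gene. The order of means was OB (96.4), HC (67.1), CX (57.9) and BS (35.8), whose neighbours did not pass (adjusted p = 0.497, 0.976 and 0.451). The OB and the BS differed 2.69-fold (adjusted p = 0.0440 from limma). Against the other regions pooled it was not called, with a log2 fold change of 0.94 in the OB (adjusted p = 0.214) and −0.97 in the BS (0.163). It was called in the OB without HC sample 1 (1.11, unadjusted p = 0.00619) and in the BS without HC sample 3 (−1.12, unadjusted p = 0.00514). An antisense gene of the annotation shares 219 bases, 2.62% of the exon length of Neto1, and whether the counting used strand is not given in the sources used here.

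Counted over the 6 pairs of regions, 11 of 42 contrasts of a gene and a pair passed an adjusted p under 0.05, against 7.29% of all contrasts of tested genes. OB against BS gave 5 of these, Grik2, Grik3, Neto1 and Neto2 being higher in the OB and Grik4 higher in the BS (15.0% of all genes passed for that pair). HC against CX gave 0 of 7 (limma, and 0 also at an unadjusted p under 0.05), where 1.23% of all genes passed. OB against HC and OB against CX each gave 2, Grik3 and Neto2, with 7.11% and 4.91% of all genes. HC against BS gave Neto2 (4.63%) and CX against BS gave Grik2 (10.9%). The intervals of the CX against all other samples ran from −4.21 to 2.08 on the log2 scale for Grik3 and from −0.41 to 0.91 for Grik5.

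To compare genes with each other, values were divided by the length of the gene's merged exons in kilobases. On this scale Grik5 had the highest level of the 5 Grik genes in 10 of 11 samples, the exception being OB sample 1, where Grik3 led. With the length of the longest transcript it led in 11 of 11. As a share of the summed Grik level per kilobase, Grik5 took 44.8% ± 6.48 (SD, n = 3) in the OB, 64.7% ± 6.80 (n = 3) in the HC, 66.1% ± 5.76 (n = 2) in the CX and 56.7% ± 2.46 (n = 3) in the BS. The composition of the rest differed by region. Grik3 held 36.2% ± 9.05 in the OB (n = 3) but 4.49% ± 3.90 in the HC (n = 3), 4.70% ± 1.22 in the CX (n = 2) and 11.1% ± 8.36 in the BS (n = 3). Grik4 held 15.9% ± 0.59 in the BS (n = 3), 6.74% ± 0.45 in the HC (n = 3), 6.00% ± 2.92 in the CX (n = 2) and 1.81% ± 0.19 in the OB (n = 3), with no overlap of the BS or of the OB with any other region. Grik2 held 22.0% ± 4.30 in the HC (n = 3), 22.5% ± 2.25 in the CX (n = 2) and 13.8% in both the OB (SD 1.12) and the BS (SD 4.40).

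Taken as the classes defined by affinity, Grik1 to Grik3 made up 53.4% ± 6.29 (SD, n = 3) of the level in the OB. They made up 28.5% ± 6.96 (n = 3) in the HC, 27.9% ± 2.83 (n = 2) in the CX and 27.4% ± 3.05 (n = 3) in the BS. The lowest OB sample (47.9%) exceeded the highest sample of the other regions (36.6%). Transcripts for the higher-affinity subunits were in the majority in all 8 samples outside the OB and also in OB sample 2 (52.1%). With the longest transcript as the length, the share of Grik1 to Grik3 in the OB was 51.3% ± 5.28 (n = 3). The summed Grik level was 139 ± 17.6 per kilobase (SD, n = 3) in the OB, 67.1 ± 8.16 (n = 3) in the HC, 83.2 ± 4.04 (n = 2) in the CX and 67.6 ± 20.9 (n = 3) in the BS. Shares are given as descriptions, with no test, and they describe transcripts, not assembled receptors.

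Of the auxiliary genes, Neto2 exceeded Neto1 per kilobase in 10 of 11 samples, and in 11 of 11 with the longest transcript. The summed Neto level divided by the summed Grik level was 0.69 ± 0.09 in the OB and 0.68 ± 0.09 in the BS (SD, n = 3 each), but 0.39 ± 0.05 in the HC (n = 3) and 0.38 in both CX samples. The OB and BS thus had ratios within each other's SD at different levels, with Neto levels per kilobase of 95.9 ± 19.4 and 45.5 ± 14.1 (SD, n = 3 each).

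**Figure D3:**
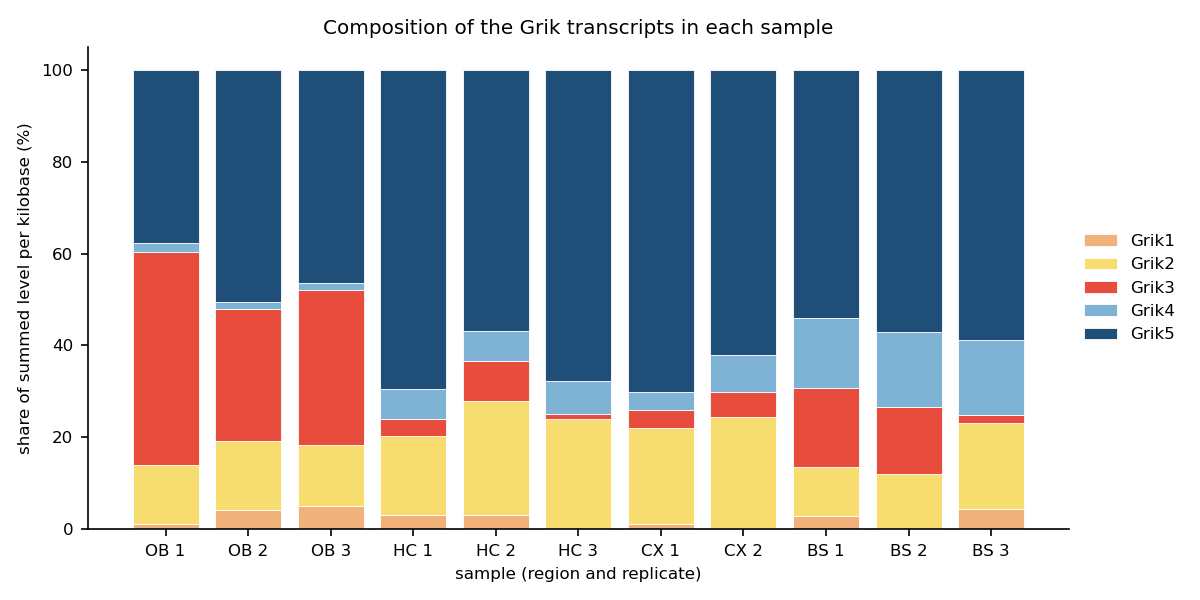
Share of each Grik gene (vertical axis, percent of the summed level per kilobase of merged exons) in each of the 11 samples (horizontal axis, region and replicate). Grik5 (dark blue) is the largest part in 10 samples, Grik3 (red) fills 28.7% to 46.3% of the OB bars, and Grik4 (light blue) fills 15.3% to 16.4% of the BS bars.

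Markers of other cell types were measured beside these genes. In the OB the summed value of 5 olfactory ensheathing markers was 1674 to 2028, against 38.5 to 192 in the other samples, with 5 of 5 detected in the OB and BS and Foxd3 at 0 in the HC and CX. The summed value of 7 neuroblast markers was 823 to 1193 in the OB and 114 to 414 elsewhere, with Dlx1 and Dlx2 at 0 in the BS. Cd24a had its highest mean in the BS (134.6, against 66.9 in the OB). Dcx, Dlx1, Dlx2, Dlx5, Sp8 and Sox11 had theirs in the OB, but Sox11 overlapped between the OB (170 to 321) and the CX (129 to 281). The 4 markers of olfactory sensory neurons summed to 309.7 to 617 in the OB and 79.3 to 353 elsewhere, ranges that overlapped. Omp and Stoml3 were at 0 in the HC and BS. Outside the OB this sum was led by Gnal. The mean of Gnal was 170 for OB samples, below the BS (277) and CX (239) means and above that of the HC (148). The ensheathing and neuroblast sums, and the median sensory neuron sum, were highest in the same region as Grik3 and Neto2. The part of these lists in those results was not tested. The 7 markers of oligodendrocyte precursors, all detected in each region, summed to 637 to 700.2 in the OB, within the range of 455 to 1136 of the other samples. The 12 neuronal markers, also detected in each region, summed to 2206 to 3807 in the OB, within 1404 to 4140 in the others. By their means, Snap25 and Syt1 led this sum in the OB, HC and CX, and Snap25 and Nefl in the BS. Among these 12, the GABAergic markers Gad1 (301 to 473 in the OB, 14.6 to 67.3 elsewhere) and Gad2 (302 to 391 against 41.5 to 287) were highest in the OB, as Grik3 and Neto2 were, and their part in those results was not tested. In the BS, where Grik2 was lower and Grik4 higher, the 7 oligodendrocyte markers summed to 51373 to 88259, against 9464 to 39231 in the other regions. The 10 astrocyte markers summed to 97652 to 286916 in the BS, where other samples lay between 234813 and 636700, a sum led by Slc1a2. The list did not move as a class, since Aqp4 (mean 14007) and S100b (4715) had their highest means in the BS and Slc1a2 (128002) and Slc1a3 (4470) their lowest. The 4 ependymal markers summed to 88.1 to 419 in the BS and 11.3 to 107 elsewhere, with Foxj1 at a mean of 221 in the BS and Ccdc153 and Tmem212 at 0 there. The 5 choroid plexus markers summed to 49816 to 234611 in the BS and 69522 to 141120 in the HC, whereas CX samples had 1599 to 4739 and OB samples, in which Folr1 was at 0, had 37.1 to 123. In BS samples 1, 2 and 3 Grik2 was 74.6, 146 and 145 beside astrocyte sums of 97652, 286916 and 166734. Their choroid plexus sums were 234611, 49816 and 115909. BS sample 1 thus had the lowest Grik2, the lowest astrocyte sum and the highest choroid plexus sum of all samples. The 12 neuronal markers summed to 3079 to 4140 in the BS and 1404 to 3807 elsewhere. Of these, Nefl (311 to 490), Nefm (126 to 182) and Stmn2 (152 to 208) lay higher in every BS sample than in any other sample. Syt1 (115 to 200), Rbfox3 (22.0 to 40.0) and Slc17a7 (10.5 to 21.0) lay lower in every BS sample than in any other. The part of these lists in the BS results, and of the choroid plexus list in the lower Neto2 of the HC, was not tested either. In the BS samples Grik3 was 82.0, 120.2 and 8.42 where the precursor markers summed to 590, 1136 and 802. In the HC it was 26.2, 53.0 and 4.77 beside sums of 480, 658 and 455, and in the CX 27.6 and 42.9 beside 687 and 721. In the OB it was 522, 409 and 395 beside 637, 700.2 and 660. The samples ranked alike for both in the HC and CX, but not in the BS or OB. With 3 and 2 samples to rank, this was not particular to precursors. The neuroblast sums and the sums of 6 microglia markers also ranked like Grik3 in the HC and CX but not in the BS or OB. The part of precursor cells, neuroblasts or microglia in the Grik3 values was not tested.

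**Figure D4:**
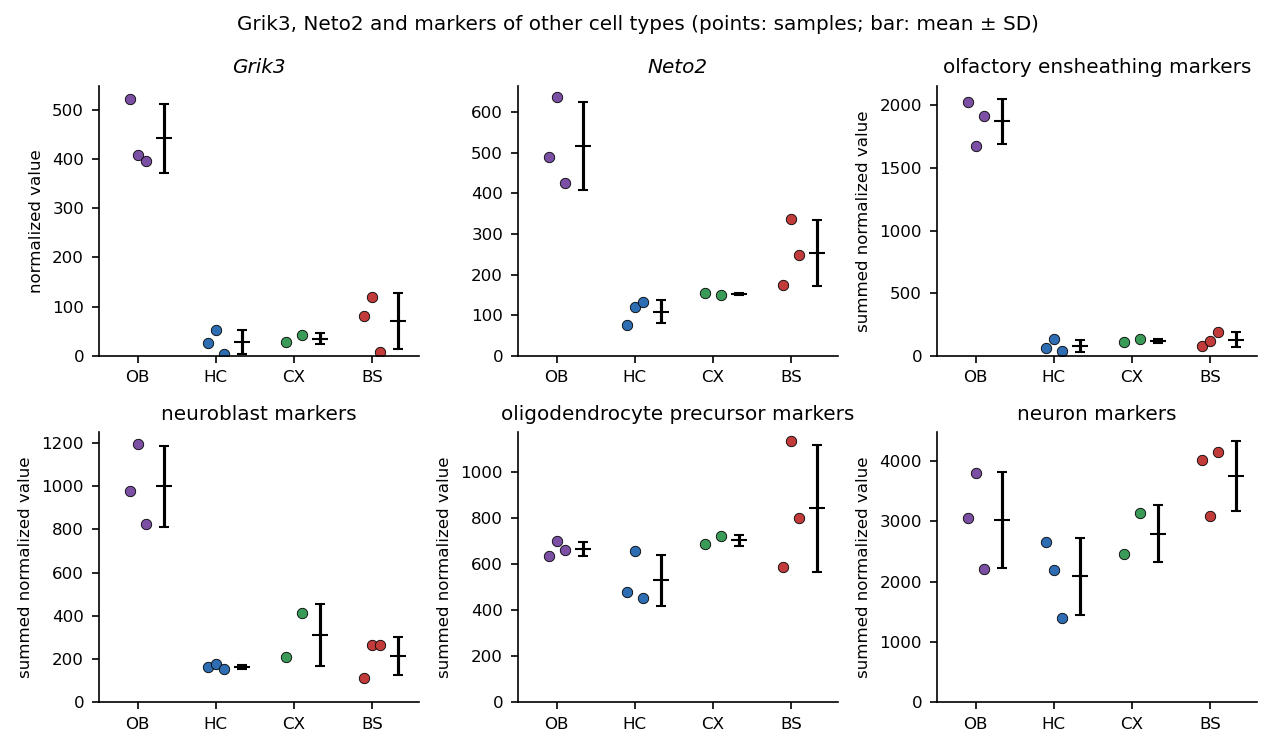
Normalized values of Grik3 and Neto2 and summed normalized values of 4 marker lists (vertical axes, linear from 0) in each sample, by region. Points are samples and bars give the mean and SD. The ensheathing and neuroblast sums are highest in the OB samples, as are Grik3 and Neto2. The precursor and neuron sums of the OB lie within the range of the other regions. Of the neuron list, Gad1 and Gad2 were highest in the OB, whereas Nefl and Nefm had their lowest means there.

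A list of 21 genes that bind, move, modify or edit kainate receptors was examined as the surrounding pathway, and all 21 were tested. Among the 4 regions 7 of these differed with an adjusted p under 0.05 (16.5% of all genes did). In the OB 3 of 21 were called (8.04% of all genes), 2 as higher and 1 as lower. In the HC 2 were called (1.28%) and in the BS 2 (9.03%), 1 in each direction both times. In the CX 0 of 21 were called against 2.77% (limma, with 2 at an unadjusted p under 0.05, and 0 called by edgeR and by DESeq2). Cask, a membrane-associated guanylate kinase that links receptors to the cytoskeleton, had a mean of 1827 in the OB and 815 elsewhere (log2 fold change 1.23, standard error 0.25, adjusted p = 0.0111 from limma). Cdh2, the adhesion molecule N-cadherin, had 2926 in the OB and 1518 elsewhere (1.01, standard error 0.27, adjusted p = 0.0486). For both, the OB samples lay above all others (4.93% of all genes). C1ql3, a secreted complement-like protein that clusters kainate receptors at synapses, had 9 reads in 1 OB sample and 0 in the other OB samples, with a mean of 2.37 against 22.2 elsewhere (−3.36, standard error 0.72, adjusted p = 0.0158). C1ql3 in the OB and C1ql2 in the HC did not meet the threshold of an RPM over 5.

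In the HC, Grip1, a PDZ scaffold protein, had values of 13.7, 4.57 and 5.50, against 30.7 to 60.8 in the other regions (log2 fold change −2.48, standard error 0.39, adjusted p = 0.0690 from limma). C1ql2, the paralog of C1ql3, had 19.4, 8.22 and 7.70 in the HC and was at 0 in 6 of the other 8 samples (2.93, standard error 0.91, adjusted p = 0.673). Grip1 was lower in every HC sample than in every other sample (1.03% of all genes), whereas C1ql2 overlapped with an OB sample at 9.77. In the BS, Dlg4, which encodes the scaffold PSD-95, had 319, 301 and 305, below every other sample (4.19% of all genes), with a log2 fold change of −0.93 (standard error 0.19, adjusted p = 0.0104). Snap25, a SNARE protein and itself on the list of neuronal markers, had a mean of 2299 in the BS and 1238 elsewhere (0.92, standard error 0.25, adjusted p = 0.0441). Adar and Adarb1, the editing enzymes, were not called in any region (adjusted p among regions = 0.381 and 0.231), and the editing of the transcripts was not analysed here.

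The genes whose profile over the 11 samples was most like that of a member were taken as the 2 with the highest Pearson correlation of log2(value + 1) among the 11292 or 11293 tested genes with a mean over 20. The coefficients are descriptions, since samples of a region share their level, and these genes were picked as the highest of many. Nearest to Neto2 were Slc6a11 (r = 0.98), which encodes the astrocytic GABA transporter GAT-3, and Calb2 (0.97), which encodes calretinin. The means of Slc6a11 followed the order of Neto2, with 28291 for the OB, 13048 for the BS, 6809 for the CX and 4526 for the HC. Those of Calb2 were 64.5, 17.5, 6.70 and 2.86 in the same order of regions. For Grik3 they were Slc35c2 (0.94) and Col12a1 (0.93), a collagen with means of 426 in the OB and 22.9 to 89.7 elsewhere. Grik2 was nearest to Tmem18 (0.95) and the transcription factor gene Sox11 (0.95), itself on the list of neuroblast markers. Grik4 was nearest to Mettl7a1 (0.95) and Fry (0.95), which had its highest mean, 1742, in the BS. For Neto1 they were Gm13889 (0.93) and Cebpd (0.92), for Grik1 Zc3hav1l (0.92) and Msto1 (0.91), and for Grik5, whose coefficients were the lowest, Tpmt (0.90) and Angptl4 (0.90).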

How the data were processed

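Aldh1l1-eGFP positive cells were sorted by FACS and total RNA was sequenced after rRNA depletion. Per the labels and the study's methods, the authors mapped paired-end reads to mm10 with STAR 2.5.0a, counted them on UCSC gene models and normalized with DESeq2 1.20.0. The deposited signal is a read count divided by a size factor for each sample. Reads were recovered from the steps between values, which came out whole for 100% of the non-zero entries (tolerance 0.001). Groups follow the titles in the labels.

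After edgeR's filterByExpr, 13875 genes were tested with limma 3.58.1 (R 4.3.3) on log2(value + 1), as a two-sided test with the mean-variance trend and Benjamini-Hochberg adjustment over all of them. Fold changes on this scale understate the change of low genes. Region-against-rest fits pooled the other samples, and F-tests and pairs used a mean for each region. Alternatives were edgeR 4.0.16 and DESeq2 1.42.0 on the recovered reads, no filter, a pseudocount of 0.25, a replicate block, a mean for each region, adjusted p-values, leaving out each sample and, added after seeing the data, a value threshold in RPM. Correlations across genes between replicates were 0.888 to 0.946. Lengths and coordinates are from GENCODE M21 (GRCm38, the same assembly as mm10), whose gene models may differ from the authors'.

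Members and lists were chosen with earlier results of these data known. Named genes are the 7 members, called partner genes (at most 4 a comparison, by size of change) and the 2 genes most like each member.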

Additional observations from a re-analysis of the deposited data

How the results depend on the processing

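The number of genes called in the HC was 1, and it was 2 with DESeq2 and 2 with a mean for each region (Grik3 being the gene added both times) and 0 with adjusted p-values. With each sample left out in turn, the count ranged from 0 to 1 for the HC, 2 to 3 for the OB, 1 to 3 for the BS and 0 to 0 for the CX, the genes differing among regions from 2 to 4, and the contrasts of a gene and a pair from 6 to 11. Where a CX sample was left out, the lone CX sample was assumed to vary like the other groups. With the longest transcript as the length, the share of Grik2 in the OB was 16.1%, and that of Grik4 was 1.52% in the OB, 5.32% in the HC and 13.1% in the BS. Without a filter on low counts Grik4 no longer passed among the regions (adjusted p = 0.0665 from limma, 18385 genes tested). The cause of these changes was not tested, beyond the larger number of genes in the last. Over the alternatives that kept all samples, 5 of 203 values of single genes changed their side of the threshold and 7 of 62 counts or shares moved. Of 168 log2 fold changes 5 changed sign, those of Grik2 in the HC and Neto2 in the BS, which were not called. With a sample left out, 21 of 308 changed sign, none of a called gene.

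Replicate numbers in the labels are not tied to an animal or day. Same-numbered samples of different regions had deviations from their region means that correlated between −0.16 and 0.25 (15 pairs). The numbers were not taken as pairs, but these correlations cannot decide whether the samples were paired. The deviations of the 2 CX samples from their mean are mirror images, so 1 correlates positively wherever the other correlates negatively. On average 9 of 11 samples correlated better with their own number. With the replicate block, OB and BS had 2 calls each, HC 1 and CX 0, 4 genes differed among regions and 11 contrasts passed, as without it, but the adjusted p of Grik4 in the BS was 0.0625, against 0.0466 without it. It was also over 0.05 without a filter (0.0727) and with a pseudocount of 0.25 (0.0509), and that of Grik2 in the BS was with edgeR (0.0537). Counts were as low as 0 reads for Grik1, 4 for Grik3 and 14 for Grik4, which limits the precision of those values.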
